A study of Homo sapiens with 6 samples.

Results

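ERK, the kinase at the end of the RAS-RAF-MEK cascade, switches on transcription of its own brakes and of some transcription factors. Here 10 such genes were followed across BT474 cells that carried one of 2 variants of the long noncoding RNA NR2F1-AS1. They were the phosphatase genes DUSP4, DUSP5 and DUSP6, the Sprouty genes SPRY1, SPRY2 and SPRY4, the Sprouty-related genes SPRED1 and SPRED2, and the transcription factor genes ETV4 and ETV5. Every probe of the array named for one of these genes was taken, which gave 12 probes of 10 genes out of 43317 gene names, and each probe was kept apart. BT474 is a breast cancer line with amplified ERBB2, the gene of the HER2 receptor that feeds this cascade. All groups carried a plasmid of the pcDNA3.1 family. Control cells held the empty plasmid, BT474-Var1 cells held the long variant 1 of NR2F1-AS1 and BT474-Var4 cells held its short variant 4, with 2 arrays in each group, A and B, and 100 ng of total RNA an array. Transfection was stable, and the study's methods give an eGFP-bearing plasmid for variant 4 and a hygromycin one for variant 1, each with its own empty control. Variant and plasmid therefore cannot be told apart between Var4 and Var1. The paper reports that few cells survived with either variant, and that colonies grew from the survivors later. Effects of that selection cannot be told apart from those of the variants either. The labels do not say which empty plasmid the Control arrays hold, nor whether A and B are separate cultures, so the p-values measure only the spread between these arrays.

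Activated ERK phosphorylates factors that induce the feedback genes within minutes to hours. The DUSP proteins then remove phosphate from ERK or related kinases, the Sprouty and SPRED proteins act further up, at RAS and RAF, and ETV4 and ETV5 belong to the ETS family and carry the transcriptional response on. Their transcripts are for that reason often read as a proxy of ERK output. The arrays measured RNA only, and phosphorylated ERK was not measured in these files.

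All 6 arrays lay on 1 slide and were scanned together. The Control and Var4 arrays filled column 1 of the slide and both Var1 arrays lay in column 2, so that slide column and Var1 cannot be told apart. Between 47.6% and 57.5% of probes were well above background, meaning clearly brighter than their surroundings by the scanner software's own call, and no spot was saturated. The number of arrays limits the precision. The transfected RNA checked the labels. Of 4 NR2F1-AS1 probes, 3 were well above background on both Var1 arrays and 2 on both Var4 arrays, while none was so on both Control arrays. One of the probes, A_22_P00006111, lay at 3.01 and 3.02 in Var4, at -1.69 and -1.53 in Var1 and at -5.76 and -4.16 in Control. Here and below a level is the log2 signal relative to the 75th percentile of its own array, so that 0 is that percentile. The 8 luminal breast cancer markers, ESR1, GATA3, KRT8 and ERBB2 among them, were well above background on every array. Their summed linear level was 2012 to 2094 times the percentile signal on the Control and Var4 arrays and 2624 to 2663 times on the Var1 arrays. The brightest of them, KRT19, was 0.62 higher in Var1 than in Control on the log2 scale (adjusted p = 0.00445), while EPCAM gave -0.66 (adjusted p = 0.00523) and 1 of the 2 FOXA1 probes -0.50 (adjusted p = 0.00529). That FOXA1 probe was also lower in Var4 than in Control (-0.40, adjusted p = 0.0108). So was ESR1 on probes A_23_P309739 (-0.47, adjusted p = 0.0176) and A_33_P3379356 (-0.85, adjusted p = 0.0232). ESR1 probe A_24_P383478 did not pass in Var4 (-0.06, adjusted p = 0.618), and KRT8 probe A_33_P3372368 was higher there (0.29, adjusted p = 0.0484). Of 4 basal markers 1 or 2 were well above background on each array, and KRT5 and ACTA2 were not on any. KRT14 probe A_33_P3345534 was well above background on the Var1 and Var4 arrays only. It read 1.35 above Control in Var1 (adjusted p = 0.00484) and 1.02 in Var4 (adjusted p = 0.0105). The other KRT14 probe did not pass, with differences of 0.12 (adjusted p = 0.767) and 0.29 (adjusted p = 0.486).

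The probes bind different stretches of their transcripts, which mattered for SPRY1 and SPRY4, the genes with 2 probes each. The first 30 of the 60 bases of these 4 probes are shown to mark which stretch each one reads. Both SPRY1 probes lie on the plus strand of chromosome 4 and both SPRY4 probes on the minus strand of chromosome 5, in the hg19 coordinates of the scanner files. The probes of a pair are separated by 5516 bases of genome in SPRY1 and by 3856 in SPRY4, and no annotation of that build was used here to place them in exons.
SPRY1 A_33_P3268910, chr4:124318918-124318947, from base 290 of its listed transcript: aagggacgacgcccgcctttctctctccga
SPRY1 A_23_P144476, chr4:124324494-124324523, from base 1940: ctcaagttgatatttatagctgatcaatct
SPRY4 A_33_P3338423, chr5:141694517-141694546, from base 764: tgaagaccagccatgtggagaatgactaca
SPRY4 A_24_P269062, chr5:141690601-141690630, from base 4353: tcgccatcatacctcgagtgaggcccagct

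The feedback genes lay mostly lower in Var1 than in Var4, with the Control cells between them or close to Var4. Of the 12 probes 11 could be tested, since some group had 2 arrays well above background for them, and the probe of ETV5 could not. Between Var4 and Var1, 9 of the 11 tested probes, from 8 genes, passed an adjusted p of 0.05 in limma, against 41.2% of all 31858 tested probes. Of these 9, 7 were higher in Var4 and 2 were lower, where 20.4% of all tested probes were higher and 20.8% lower. The median difference over the 11 probes was 0.69 on the log2 scale, and -0.03 over all tested probes. Among the 11, 4 also differed by 2-fold or more, which 6.86% of all tested probes did. ETV4, counted among these 4, was not well above background in Var1, and its difference was bounded only at 1.73-fold or more. These shares are a description of the 11 probes, several of which come from genes that are known to respond together.

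Each transfected group was then set against the Control cells. In Var1, 5 of the 11 probes passed, 4 lower and 1 higher, against 34.4% of all tested probes, 20.3% lower and 14.1% higher. Their median difference was -0.38, and -0.04 over all tested probes. No difference among the 11 reached 2-fold, while 3.94% of all tested probes passed at that size. In Var4, 3 of the 11 passed, 2 higher and 1 lower, which is a share of 27.3% and close to the 24.2% of all tested probes, 9.87% higher and 14.3% lower. Their median difference was 0.27, and -0.08 over all tested probes. No difference among the 11 reached 2-fold here either, while 3.17% of all tested probes passed at that size. Both comparisons use the same 2 Control arrays. The count for Var4 against Control fell to 0 in limma when either Control array or either Var4 array was left out, with 4 or 5 probes at an unadjusted p under 0.05, and that for Var1 fell to 3 without Control A, Control B or Var1 B.

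**Figure D1:**
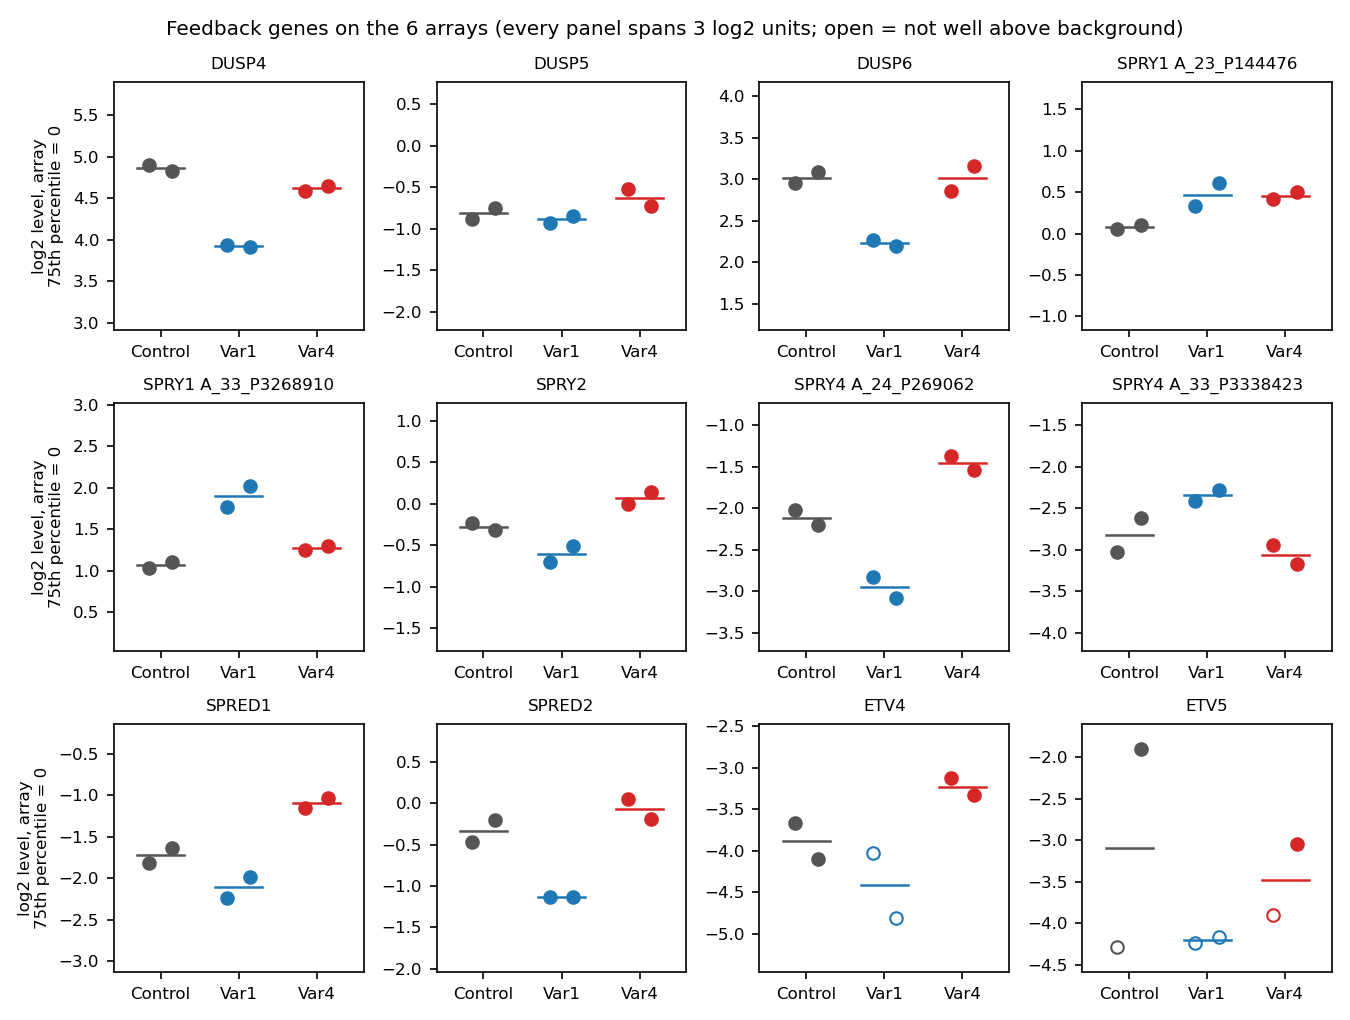
Log2 level of the 12 probes of the feedback genes on each of the 6 arrays, with the 75th percentile of each array at 0. Points are arrays (A left, B right), bars are group means, open points were not well above background, and every panel spans 3 log2 units. Both Var1 points lie below all others for DUSP4, DUSP6, SPRY2, SPRED1, SPRED2 and SPRY4 A_24_P269062, and above all others for SPRY1 A_33_P3268910 and SPRY4 A_33_P3338423.

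The phosphatases came first. DUSP4, a nuclear phosphatase of ERK, gave 4.90 and 4.83 in Control, 3.94 and 3.92 in Var1, and 4.59 and 4.65 in Var4. The 3 groups did not overlap, and replicate arrays differed by less than the group means. In Var1 DUSP4 was 1.91-fold lower than in Control, a log2 change of -0.94 (SE 0.05, adjusted p = 0.00311). This call held in all 15 alternative analyses. In Var4 it was 1.19-fold lower, a log2 change of -0.25 (SE 0.05, adjusted p = 0.0402). This second call failed in 10 of the 15, among them the omission of any single array, where the change was -0.28 to -0.21 and the adjusted p was 0.0749 to 0.165. Var4 exceeded Var1 by 0.69 (SE 0.05, adjusted p = 0.00253).

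DUSP6, the cytoplasmic phosphatase with the narrowest preference for ERK, is often taken as the closest transcript readout of the pathway. Its probe, on the minus strand at chr12:89742144-89742203, gave 2.96 and 3.08 in Control, 2.27 and 2.20 in Var1, and 2.86 and 3.16 in Var4. The Var1 arrays were the low ones, and Control and Var4 overlapped. DUSP6 fell by 0.78 in Var1 against Control (SE 0.12, adjusted p = 0.0119), a 1.72-fold difference. The difference of Var4 from Control was -0.01, with a 95% interval from -0.32 to 0.31 (adjusted p = 0.962), and its sign turned in 3 alternatives. Against Var1, DUSP6 was 0.77 higher in Var4 (SE 0.12, adjusted p = 0.0101). Omission of either Control or either Var1 array took the call against Control to an adjusted p of 0.0507 to 0.0645, with changes of -0.85 to -0.72. The call between the variants went without Var1 B, where the difference was 0.74 (adjusted p = 0.0505).

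DUSP5, a nuclear phosphatase that is also induced by ERK, did not follow. Its probe at chr10:112270900-112270959 gave -0.88 and -0.75 in Control, -0.93 and -0.85 in Var1, and -0.53 and -0.73 in Var4. The Var1 and Control arrays overlapped and the Var4 arrays were the highest. No comparison passed. The differences were -0.07 for Var1 against Control (adjusted p = 0.61), 0.19 for Var4 against Control (adjusted p = 0.224) and 0.26 between Var4 and Var1, with a 95% interval from 0.00 to 0.52 (adjusted p = 0.0963).

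Among the Sprouty genes, which encode inducible inhibitors of receptor signalling upstream of RAF, SPRY2 gave -0.24 and -0.32 in Control, -0.70 and -0.50 in Var1, and 0.00 and 0.14 in Var4. The 3 groups did not overlap and Control lay in the middle. The probe lies at chr13:80910622-80910681. Neither variant passed against Control, with differences of -0.32 for Var1 (adjusted p = 0.0639) and 0.35 for Var4 (adjusted p = 0.0656). The variants themselves differed by 0.67 (SE 0.10, adjusted p = 0.00881), a 1.59-fold higher signal in Var4.

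SPRY4 gave different answers with its 2 probes. The probe further along the transcript, A_24_P269062, gave -2.02 and -2.21 in Control, -2.82 and -3.08 in Var1, and -1.37 and -1.54 in Var4. No groups overlapped, and this was the widest difference between the variants among the 11 tested probes. The signal was 2.82-fold higher in Var4 than in Var1, a log2 difference of 1.5 (SE 0.13, adjusted p = 0.00276). Against Control it fell by 0.84 in Var1 (SE 0.13, adjusted p = 0.0118) and rose by 0.66 in Var4 (SE 0.13, adjusted p = 0.0281). Without Control A the change in Var1 was -0.74 (adjusted p = 0.0625). The rise in Var4 did not pass without either Control or either Var4 array, at 0.57 to 0.75 (adjusted p = 0.077 to 0.12). The other probe, A_33_P3338423, gave -3.03 and -2.61 in Control, -2.41 and -2.27 in Var1, and -2.94 and -3.17 in Var4. Here the Var1 arrays were the high ones, and Control and Var4 overlapped. Var4 fell below Var1 by 0.72 (SE 0.17, adjusted p = 0.0311), which was lost in 8 of 15 alternatives, including the omission of any Var1 or Var4 array (-0.83 to -0.60, adjusted p = 0.065 to 0.121). Neither variant passed against Control on this probe, with differences of 0.48 (adjusted p = 0.0961) and -0.24 (adjusted p = 0.358). The array therefore gives no single direction for SPRY4. Which transcripts carry the signal of each probe was not tested.

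SPRY1 also had 2 probes, and both were higher in Var1 than in Control. A_33_P3268910, near the start of its transcript, gave 1.03 and 1.1 in Control, 1.77 and 2.03 in Var1, and 1.26 and 1.30 in Var4. The Var1 arrays stood above the rest and no groups overlapped. The rise in Var1 was 0.83 (SE 0.10, adjusted p = 0.00764), a 1.78-fold change that held in all 15 alternatives, while the difference of Var4 from Control was 0.21 (adjusted p = 0.197). Var4 fell below Var1 by 0.62 (SE 0.10, adjusted p = 0.0119), a call that went without Var4 A (-0.60, adjusted p = 0.0554) or Var4 B (-0.64, adjusted p = 0.0509). A_23_P144476 gave 0.06 and 0.10 in Control, 0.33 and 0.61 in Var1, and 0.41 and 0.50 in Var4. Both variants lay above Control, by 0.39 in Var1 (adjusted p = 0.0522) and by 0.38 in Var4 (adjusted p = 0.069), short of the threshold, and the variants overlapped, with a difference of -0.01 (95% interval from -0.30 to 0.28). SPRY1 was thus the one gene of the 10 whose passing probe rose in Var1.

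The SPRED genes, whose products hold back RAS together with neurofibromin, were likewise higher in Var4 than in Var1. SPRED1, read at chr15:38645760-38645819, gave -1.82 and -1.63 in Control, -2.23 and -1.98 in Var1, and -1.15 and -1.04 in Var4. No groups overlapped. SPRED1 was 2.02-fold higher in Var4 than in Var1, a difference of 1.02 (SE 0.12, adjusted p = 0.00559). It rose by 0.63 in Var4 against Control (SE 0.12, adjusted p = 0.0279), a call lost in 6 of 15 alternatives, and the difference of Var1 from Control was -0.38 (adjusted p = 0.0705). SPRED2, read on the minus strand at chr2:65538851-65538910, gave -0.47 and -0.20 in Control, -1.13 and -1.14 in Var1, and 0.05 and -0.19 in Var4. The Var1 arrays were lowest by a wide margin. SPRED2 fell by 0.80 in Var1 against Control (SE 0.13, adjusted p = 0.0134) and was 2.09-fold higher in Var4 than in Var1, a difference of 1.07 (SE 0.13, adjusted p = 0.00574). Against Control the difference in Var4 was 0.27 (adjusted p = 0.195). The rise of SPRED1 in Var4 against Control did not pass without either Control or either Var4 array (0.54 to 0.72, adjusted p = 0.0814 to 0.116), nor did the fall of SPRED2 in Var1 without Control B or either Var1 array (-0.80 to -0.67, adjusted p = 0.0553 to 0.061).

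The ETS factors sat near the limit of detection. ETV4, which drives invasion and growth programmes in several carcinomas, gave -3.67 and -4.11 in Control and -3.13 and -3.34 in Var4, and it was not well above background on either Var1 array, where it read -4.03 and -4.81. Its signal was at least 1.73-fold higher in Var4 than in Var1 (adjusted p = 0.039). Such a bound sets the dim group at the faintest signal that still counted as well above background on its arrays. That call was lost in 9 of 14 alternatives, including the omission of any array but Var1 A, where the log2 difference was 0.79 to 1.29 and the adjusted p 0.0611 to 0.14. Neither variant passed against Control, with log2 differences of -0.53 for Var1 (adjusted p = 0.249) and 0.66 for Var4 (adjusted p = 0.19). ETV5, its close relative, was well above background on Control B and Var4 B only, and was not tested. Its probe read -4.28 and -1.91 in Control, -4.24 and -4.16 in Var1, and -3.90 and -3.05 in Var4, so the 2 Control arrays lay further apart than any groups did.

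**Figure D2:**
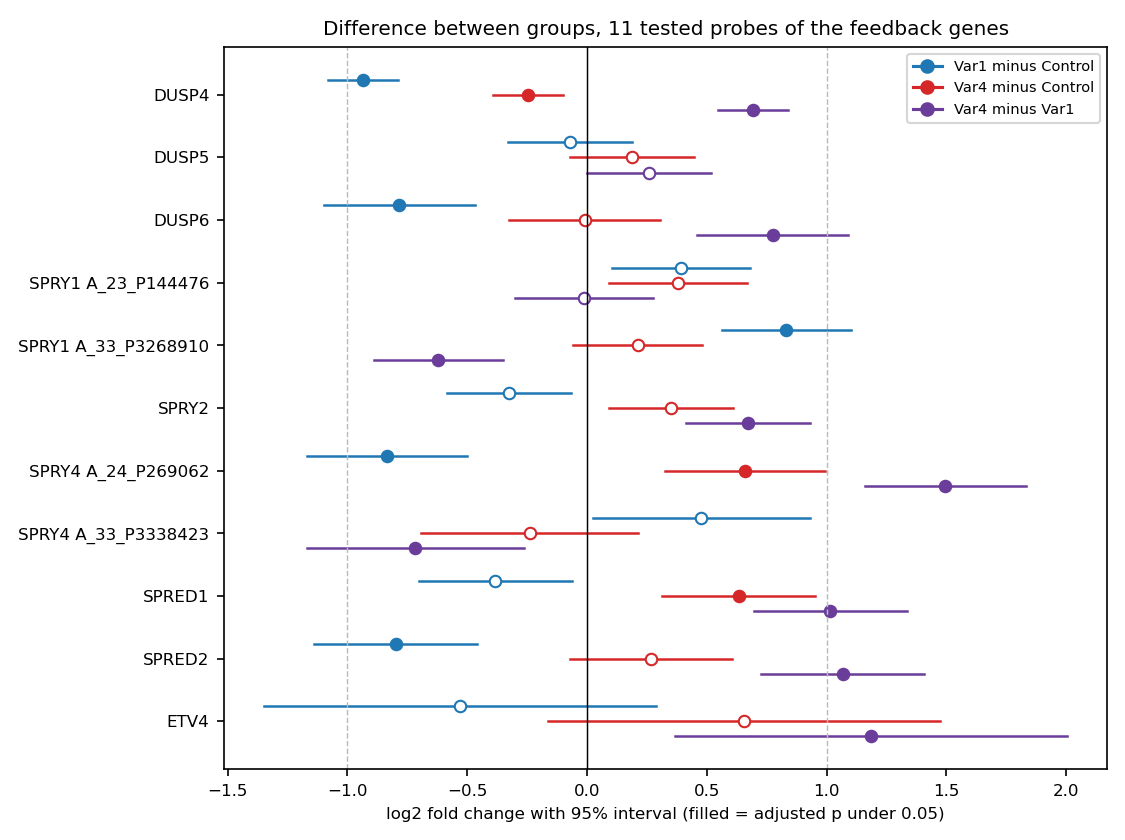
Log2 fold change with its 95% interval for each of the 11 tested probes in the 3 comparisons. Filled points passed an adjusted p of 0.05, and dashed lines mark a 2-fold change. In the comparison of Var4 with Var1 (purple) 7 filled points lie to the right of 0 and 2 to the left, while only 3 filled points belong to Var4 against Control (red).

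Dim probes were sensitive to the background correction. With normexp and an offset of 50, which adds a constant to every signal and so narrows the differences of faint probes, the difference of Var4 from Var1 on SPRY4 A_24_P269062 was 0.32 in place of 1.5, that of SPRED1 was 0.34, that of SPRED2 was 0.60, that of SPRY2 was 0.37 and that of ETV4 was 0.07. ETV4 no longer passed. The other 4 kept both direction and threshold. The brighter DUSP4 and DUSP6 gave 0.69 and 0.75. The calls between the variants for DUSP4, SPRY2, SPRED1, SPRED2 and SPRY4 A_24_P269062 held in all 15 alternatives.

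**Figure D3:**
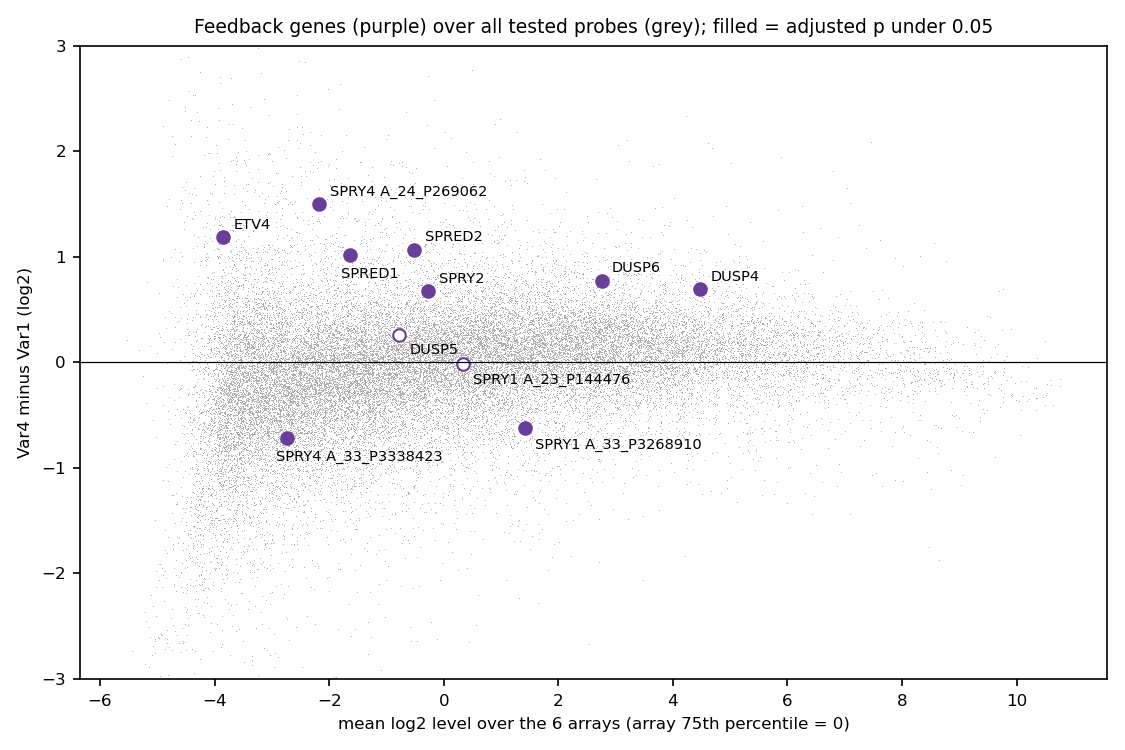
Difference of Var4 from Var1 on the log2 scale against the mean log2 level over the 6 arrays, for the 11 probes of the feedback genes (purple, filled where adjusted p was under 0.05) and for 31754 tested probes (grey). Another 104 tested probes lie outside the vertical range of -3 to 3. DUSP4 and DUSP6 are the brightest of the 11, and SPRY4 A_24_P269062 has the highest difference.

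Counts of groups that did not overlap add little. Both Var4 arrays lay above both Var1 arrays on 8 of the 11 probes and below them on 2. Over all tested probes 74.7% showed such a separation in one direction or the other. For Var1 against Control, 9 of the 11 were separated, 6 of them lower, where 71.8% of all tested probes were separated in either direction. For Var4 against Control 9 were separated, 8 of them higher, where 68.7% of all tested probes were separated in either direction. Shares by direction were not counted over all tested probes, so the directions given here have no such measure beside them.

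Sequence upstream of the genes was examined for the letters that ERK-responsive factors bind. RefSeq's promoter table for GRCh38.p14, which runs from 250 bases before a start site to 50 after it, held 6 of the 10 genes in 10 windows. They were DUSP6, SPRY1, SPRY2, SPRY4, SPRED1 and SPRED2. The core of an ETS site, CGGAAG on either strand, was found in 3 of the 10 windows, 1 each of DUSP6, SPRY1 and SPRED2, and in 19.5% of all 35116 windows. An AP-1 site, TGANTCA, occurred in 1 window, of SPRED2, and in 7.7% of all windows. The CRE letters TGACGTCA, in 1.8% of all windows, and the forms TGAATGAA and TGAATGGA of the site of the repressor CIC, in 1.7% and 1.0%, were in none of the 10. The genes with the ETS letters did not share a direction, since DUSP6 and SPRED2 were lower in Var1 and SPRY1 was not. The 250 bases before the DUSP6 start are shown because this gene is the usual transcript proxy of ERK, with the ETS letters, read on the opposite strand, in capitals.
DUSP6, GRCh38.p14, minus strand, chr12:89352502-89352751: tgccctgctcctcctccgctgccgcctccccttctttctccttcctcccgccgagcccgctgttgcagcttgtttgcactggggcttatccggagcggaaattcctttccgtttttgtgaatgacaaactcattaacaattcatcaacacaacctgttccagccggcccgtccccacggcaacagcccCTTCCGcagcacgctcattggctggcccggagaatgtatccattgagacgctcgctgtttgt
The match runs from base -62 to base -57 counted from the start site. Nothing in these arrays measured binding there.

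The rest of the pathway was described by lists, whose counts are to be read beside the shares of all tested probes. Those shares were 14.1% higher and 20.3% lower in Var1 than in Control, and 9.87% higher and 14.3% lower in Var4. Between the variants 20.4% were higher and 20.8% lower in Var4. The cascade above the feedback genes, from the receptors through RAS, RAF and MEK to ERK and its RSK kinases, was measured by 41 tested probes of 26 genes. In Var1, 9 of these probes were higher and 11 lower than in Control, and in Var4, 6 were higher and 5 lower. Between the variants 11 were higher and 8 lower in Var4, with a median of 0.02. EGFR, a receptor that pairs with HER2, was the one cascade gene past 2-fold. Its probe A_23_P215790 gave -0.97 and -0.69 in Control, 0.71 and 0.85 in Var1, and -0.37 and -0.58 in Var4. EGFR was 3.05-fold higher in Var1 than in Control (log2 1.61, adjusted p = 0.00445) and 2.38-fold lower in Var4 than in Var1 (log2 -1.25, adjusted p = 0.00435). The second EGFR probe was not well above background in Control and was at least 2.25-fold higher in Var1 (adjusted p = 0.0416), a call lost in 10 alternatives. ERBB2 itself, named here after its values were seen, gave 8.63 and 8.59 in Control, 8.83 on both Var1 arrays, and 8.60 and 8.58 in Var4, a difference of 0.22 for Var1 (adjusted p = 0.0295) that was lost in 9 of 15 alternatives. The second ERBB2 probe did not pass, with a difference of 0.50 (adjusted p = 0.0714).

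Other genes that ERK induces fell into different patterns. Of 19 tested probes of 16 genes, 6 were higher and 6 lower in Var1 than in Control, 8 were higher and 2 lower in Var4, and between the variants 5 were higher and 3 lower in Var4. FOS and EGR2, immediate early factors, rose in both variants, and MYC, named here after its values were seen, fell by 0.62 in Var1 (adjusted p = 0.00395) and by 0.58 in Var4 (adjusted p = 0.0054). FOS, a subunit of AP-1, gave -0.58 and -0.44 in Control, 1.08 and 1.01 in Var1, and 0.64 and 0.74 in Var4. This is 2.94-fold higher in Var1 (adjusted p = 0.0029) and 2.30-fold in Var4 (adjusted p = 0.00388). EGR2, a zinc finger factor, rose 2.78-fold in Var1 (adjusted p = 0.012) and 2.20-fold in Var4 (adjusted p = 0.0303), calls lost in 4 and 7 alternatives. On these 2 genes Var1 lay above Control, where DUSP6 lay below.

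A further 3 genes of that list lay lower in Var1 than in Var4 by 2-fold or more. EPHA4, an ephrin receptor, gave 0.89 and 0.83 in Control, -0.16 and -0.21 in Var1, and 1.74 and 1.69 in Var4. Against Control, EPHA4 fell 2.07-fold in Var1 (adjusted p = 0.00294) and rose 1.8-fold in Var4 (adjusted p = 0.00408). It was 3.72-fold higher in Var4 than in Var1 (adjusted p = 0.00118). EPHA2, a related receptor, was 2.48-fold higher in Var4 than in Var1 (adjusted p = 0.00188). Its log2 differences from Control were -0.44 in Var1 (adjusted p = 0.022) and 0.87 in Var4 (adjusted p = 0.00761). AREG, a ligand of EGFR, was 2.32-fold higher in Var4 than in Var1 on one probe (adjusted p = 0.0012) and 3.51-fold on the other (adjusted p = 0.00601). On the first probe AREG differed from Control by 0.91 in Var4 (adjusted p = 0.00343) and -0.30 in Var1 (adjusted p = 0.017). On the other probe the differences were 1.32 in Var4 (adjusted p = 0.0213) and -0.49 in Var1, which did not pass (adjusted p = 0.159). EREG, a second EGFR ligand, was not well above background in Control. It read -3.28 and -1.47 in Var1 and -3.86 and -3.23 in Var4, and was at least 4.02-fold higher in Var1 than in Control (adjusted p = 0.0266), which was lost in 7 alternatives. That bound, split by array after the data were seen, is 2.15 from Var1 A alone and 7.5 from Var1 B alone. The difference between the variants on EREG did not pass (log2 -1.17, adjusted p = 0.218). HMGA2, a chromatin protein of growing cells, was not well above background in either variant on one probe and was at least 1.47-fold lower in Var1 (adjusted p = 0.0426) and at least 1.35-fold lower in Var4 (adjusted p = 0.0423), calls lost in 9 and 7 alternatives. Its other probe gave -0.13 and -0.01 and did not pass.

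The list of remaining MAP kinase phosphatases held probes that rose in Var1, where DUSP4 and DUSP6 fell. Of 8 tested probes of 6 genes, 5 passed in Var1 against Control and 2 in Var4, all of them higher, with medians of 0.46 and 0.12. The probe of DUSP16 (0.16, adjusted p = 0.297) and 2 of the 3 probes of DUSP8 were among the 3 that did not pass in Var1. DUSP1, an early phosphatase of p38 and JNK as well as ERK, gave 2.12 and 2.08 in Control, 3.46 and 3.53 in Var1, and 2.56 and 2.53 in Var4. The 3 groups were well apart. DUSP1 rose 2.64-fold in Var1 (adjusted p = 0.00233), and fell by 0.95 from Var1 to Var4 (adjusted p = 0.0015). DUSP2, a nuclear phosphatase best known in immune cells, rose in both, 1.74-fold in Var1 (adjusted p = 0.00519) and 2.32-fold in Var4 (adjusted p = 0.00373).

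Other brakes and relatives of the members were measured by 22 tested probes of 14 genes. Against Control 2 were higher and 4 lower in Var1, and 2 were higher and 3 lower in Var4, while between the variants 6 were higher and 3 lower in Var4. ERRFI1, which encodes an inhibitor of EGFR and HER2, gave 2.48 and 2.55 in Control, 2.0 and 1.96 in Var1, and 2.94 and 3.03 in Var4. It was 2.0-fold higher in Var4 than in Var1 (adjusted p = 0.00159), and 1.88-fold under quantile normalisation. RASAL2, a RAS GTPase-activating protein gene, was 3.87-fold higher in Var4 on 1 of its 3 probes (adjusted p = 0.0381), which was lost in 9 alternatives. SPRED3, the third SPRED gene, went against its relatives. It was not well above background in Var4 and lay at least 1.27-fold below Control (adjusted p = 0.021, lost in 6 alternatives) and at least 1.37-fold below Var1 (adjusted p = 0.011).

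ETS factors other than ETV4 and ETV5 had 14 tested probes of 8 genes, of which 2 were higher and 1 lower in Var1 than in Control, 2 passed in Var4 and were higher, and 3 were higher and 3 lower in Var4 than in Var1. ETS2, a target of ERK phosphorylation, was not well above background in Var1. It lay at least 1.90-fold below Control there (adjusted p = 0.0126, lost in 4 alternatives) and at least 2.46-fold below Var4 (adjusted p = 0.00625). ETV1, the third gene of the ETV4 and ETV5 subfamily, read -6.11 and -6.51 in Control and -5.56 and -4.99 in Var1 on probe A_33_P3357949, not well above background, and -2.68 and -2.91 in Var4. This probe is among those counted as higher in Var1 than in Control (adjusted p = 0.0364), though neither group was well above background. That call was lost in 12 alternatives. On the same probe ETV1 was at least 3.0-fold higher in Var4 than in Control (adjusted p = 0.00446). The second ETV1 probe, well above background on all 6 arrays, differed by 0.03 (adjusted p = 0.914). ELK1, which binds with serum response factor at early genes, was 2.03-fold lower in Var4 than in Var1 on 1 of its 3 probes (adjusted p = 0.0175), which was lost in 3 alternatives.

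**Figure D4:**
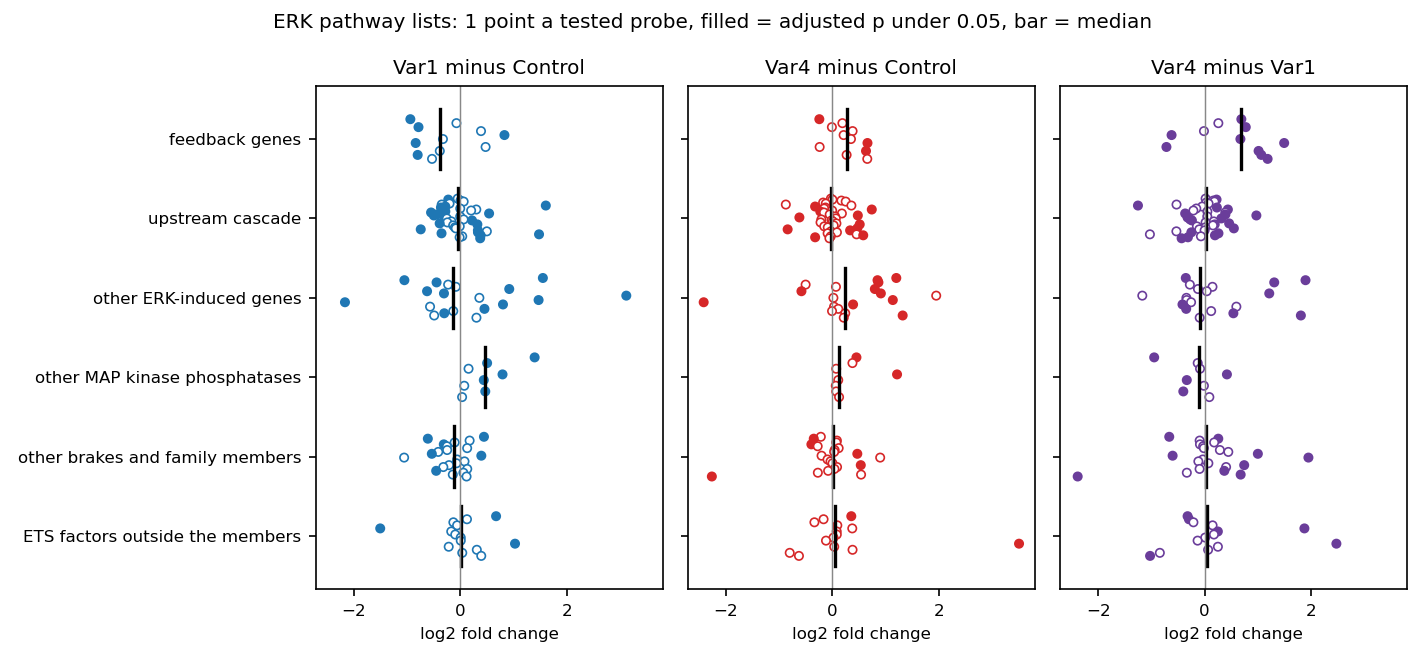
Log2 fold change of each tested probe of the feedback genes and of 5 further lists of the ERK pathway in the 3 comparisons. Filled points passed an adjusted p of 0.05 and bars are medians. In the comparison of Var4 with Var1 the median is 0.69 for the feedback genes and lies between -0.11 and 0.04 for the other lists.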

How the data were processed

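Total RNA of 6 BT474 samples was labelled with Cy3 by the authors and hybridised to 1-colour Agilent human gene expression arrays. The deposited scanner files hold intensity values per spot from Agilent Feature Extraction 11.5.1.1, background-subtracted within each array. The array design number in the file headers differs from that in the study's methods. Gene names and hg19 positions are those of the files. The deposited table of log2 values matched the same arrays within a median of 0.00716 and was used as an alternative.

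Processed signals were taken as log2 and shifted by each array's 75th percentile over non-control probes. Outlier spots (63 to 128 of 62976 an array) were left out and spots of a probe averaged. Probes that both arrays of some group showed well above background (31858 of 58201) were fitted together with limma 3.58.1 in R 4.3.3, as 3 group means over all 6 arrays, with Benjamini-Hochberg adjustment. The study's methods used an analysis of variance, which was an alternative here. On simulated data for Var1 minus Control, 85% of 200 probes shifted by 2 log2 units were recovered. That shift was larger than any difference among the tested feedback probes, and recovery of smaller shifts was not simulated.

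The genes named are all probes of the members, the list genes past adjusted p 0.05 and 2-fold (at most 5 a list and comparison), and for each passing member probe the probe with the most similar 6 values, of which 1 is not reported here. Members and lists were chosen with earlier results of these data known. Alternatives were another background correction, quantile normalisation, 2 other filters on dim probes, the deposited table, a replicate block, other variance estimates, pairs of groups alone, and leaving out each array.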

Additional observations from a re-analysis of the deposited data

How the results depend on the processing

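Of 11 tested probes, the number that passed between Var4 and Var1 was 9, and 6 to 9 across the 15 alternatives. For Var1 against Control it was 5, became 2 with no filter on dim probes, 8 with probes well above background on all 6 arrays and 8 with trended, robust variances, and ranged from 3 to 5 with 1 array left out. For Var4 against Control it was 3, became 5 with normexp, 0 with no filter (5 at an unadjusted p under 0.05), 5 with probes well above background on all 6 arrays, 6 with trended, robust variances and 1 with the methods' analysis of variance, and ranged from 0 to 3 with 1 array left out. Leaving out an array gives a group of 1, whose spread is then taken to be like that of the others. The filters change how many probes are adjusted for and which probes enter the fit. The cause of these shifts was not tested.

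With the replicate letter as a replicate block, 7, 2 and 8 probes passed in Var1 against Control, Var4 against Control and Var4 against Var1. The letters showed no pairing, with correlations of A minus B between groups of -0.015 to 0.045. The labels do not say what the letters mark.

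Some differences that did not pass changed sign. ETV4 in Var1 against Control went from -0.529 to 0.036 with normexp. DUSP6 in Var4 against Control became 0.015 with quantile normalisation, 0.055 without Control B and 0.138 without Var4 A, in a leave-one-out range of -0.156 to 0.138. SPRY1 A_23_P144476 in Var4 against Var1 became 0.031 without Var4 A and 0.128 without Var1 B, in a range of -0.151 to 0.128. Of the values of single probes, 410 kept direction and threshold, 54 lost the call, 22 gained one and 6 changed sign. Quantile normalisation moved the median of all tested probes by at most 0.04. With 2 arrays a group, changes of ETV4, ETV5 and other dim probes were measured poorly.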

Other observations

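For each feedback probe that passed in any comparison, the tested probe of another gene with the most similar 6 values was sought, by the root mean square difference of log2 values after each probe was centred on its mean over the 6 arrays. DUSP4 was closest to RNASEH1, a gene for an RNA-DNA hybrid nuclease, at 0.03. DUSP6 was closest to SMPDL3B at 0.06. SPRED1 was closest to DNAJB5 at 0.05, SPRED2 to GPC5 at 0.07 and ETV4 to ZNF503-AS1 at 0.13. For SPRY4 the nearest genes were C12orf75 on A_24_P269062, at 0.06, and CYB5D1 on A_33_P3338423, at 0.04. For SPRY1 A_33_P3268910 it was MYH3, a myosin heavy chain gene, at 0.06. None of the nearest genes named here was itself a feedback gene. With 6 arrays in 3 groups among 31858 probes, near matches of this kind are easily found, and the distances are a description.

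Markers of other cell types were read on the same arrays. The 5 fibroblast markers had a summed linear level of 5.51 to 5.70 in Var4, 3.67 to 3.79 in Var1 and 3.12 to 3.16 in Control, relative to the 75th percentile. COL1A1 and DCN, both genes of the extracellular matrix, were highest in Var4. COL1A1 was 1.035 above Control in Var4 (adjusted p = 0.00293) and 0.34 above it in Var1 (adjusted p = 0.0116). On probe A_23_P64873 DCN was well above background in Var4 only, at -1.35 and -1.76. PDGFRB probe A_22_P00011688 was well above background on every array and did not pass in Var4 against Control (-0.32, adjusted p = 0.129). The other probes of DCN and PDGFRB were not well above background on any array. COL1A2 and COL3A1 were not well above background on any array. The 3 endothelial markers summed to 1.77 to 1.89 in Var1 and 2.43 to 2.78 elsewhere, and the 3 immune markers on the array to 15.5 in Var1 and 20.98 to 21.9 elsewhere, most of it from the probe of CD79A. The part of these in the feedback gene differences was not tested.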
